A study of Mus musculus with 9 samples.

Results

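The AP-1 family was followed through the RNA of bone marrow-derived mast cells (BMMCs) as 10 genes, Fos, Fosb, Fosl1, Fosl2, Jun, Junb, Jund, Atf3, Batf and Atf2, chosen by gene name from the 47643 genes in the count table. All 10 were found, and all 10 were among the 11560 genes with a median above 1 CPM, which were the genes tested. CPM are counts per 1000000 counts of a library, and every CPM value given is also adjusted for library composition by TMM factors. BMMCs are mast cells grown from C57BL/6 mouse bone marrow in medium conditioned by WEHI-3 cells, a leukaemia line that supplies interleukin-3. There were 9 libraries. The 3 Control libraries came from untreated cells, the 3 BSA libraries from cells given IgE and the antigen DNP-BSA, which crosslinks the IgE receptor, and the 3 BSA + luteolin libraries from cells given IgE, DNP-BSA and luteolin, a plant flavonoid. The labels give luteolin at 10 μM for 24 h, in a treatment text that stands with all 9 samples, Control included. The study's descriptions place luteolin before stimulation in one passage and after it in another, and the time between antigen and harvest is not given in the sources used here.

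AP-1 is a dimer of basic leucine zipper (bZIP) proteins that binds short palindromic DNA elements. FOS proteins bind DNA only together with a JUN partner, JUN proteins can also pair with each other, and ATF3, BATF and ATF2 join the same network through their zippers. Several of these genes are immediate early genes, transcribed within minutes of a signal without new protein synthesis. In mast cells, crosslinking of the IgE receptor activates MAP kinases and calcium signalling, and AP-1 acts with NFAT at cytokine genes.

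The promoters of Fos, Jun and Atf3 are shown because Fos and Atf3 had the largest rises in BSA described below, and Jun is the partner to which Fos is set in a ratio. Each run holds 250 bases before the RefSeq start of the gene, 5′ to 3′ on the gene's strand, from GRCm38.p6. Capitals mark letters related to the cAMP response element TGACGTCA, the site of CREB and ATF proteins, in any of the forms TGACGT, TGACNTCA or TNACGTCA, searched on both strands.
Fos, plus strand, chr12:85473640-85473889: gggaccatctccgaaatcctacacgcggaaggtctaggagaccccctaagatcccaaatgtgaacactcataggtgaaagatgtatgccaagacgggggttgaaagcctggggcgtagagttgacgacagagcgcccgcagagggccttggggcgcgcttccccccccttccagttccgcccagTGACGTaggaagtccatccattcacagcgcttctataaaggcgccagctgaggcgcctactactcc
Jun, minus strand, chr4:95052223-95052472: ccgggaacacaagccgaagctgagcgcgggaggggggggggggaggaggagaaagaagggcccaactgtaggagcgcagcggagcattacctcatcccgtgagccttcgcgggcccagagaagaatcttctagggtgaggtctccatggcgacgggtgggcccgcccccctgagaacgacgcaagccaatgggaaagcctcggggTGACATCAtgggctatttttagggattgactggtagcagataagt
Atf3, minus strand, chr1:191183334-191183583: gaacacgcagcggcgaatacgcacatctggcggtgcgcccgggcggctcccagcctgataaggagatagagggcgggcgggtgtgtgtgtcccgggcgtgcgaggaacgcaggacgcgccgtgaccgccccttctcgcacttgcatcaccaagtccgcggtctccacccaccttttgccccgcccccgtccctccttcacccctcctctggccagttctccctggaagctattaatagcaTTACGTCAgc

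The Fos window held TGACGT at bases -66 to -61, where -1 is the last base before the start. Jun held TGACNTCA at bases -45 to -38, and Jun is known to be controlled by AP-1 itself through an element of this kind. Atf3 held TNACGTCA at bases -10 to -3, overlapping a TGACGT match. The RefSeq start of Atf3 lies inside the longer GENCODE gene, which also has a start further upstream. Among 32851 promoters of the same length, 6.47% held TGACGT, 7.49% held TGACNTCA and 2.52% held TNACGTCA, and these forms overlap each other where the full element is present. Among the promoters of tested genes the shares were 10.2%, 6.07% and 4.14%. Batf, the member that was higher with luteolin, also held TGACGT, at bases -98 to -93. The promoters of Fosb, Fosl2, Junb, Jund and Atf2 held none of these forms. The Fosl2 window, chr5:32136222-32136471, lies inside its GENCODE gene, which starts at 32135801. The Jund window, chr8:70697489-70697738, ends before its GENCODE gene starts at 70698949. TGACGT was in 3 of the 9 members' promoters and in 5 of 15 other immediate early genes. These 3 forms were chosen after the windows had been read. Promoters of 9 of the 10 genes were in the RefSeq table, all but Fosl1. None of the 9 held the TPA response element (TGACTCA or TGAGTCA), the full TGACGTCA or a CArG box within these 250 bases, against 4.46%, 1.55% and 1.47% of all promoters. A match is a description of letters, and no match says nothing of binding elsewhere.

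Depth ranged from 9515004 to 24605689 counts per library, at which 3 counts were worth 0.122 to 0.315 CPM. All 12 mast cell markers, Kit, Fcer1a and Cpa3 among them, were above 1 CPM in every library, while the T cell gene Cd3e and the B cell gene Ms4a1 were at 0 in every library. The Control libraries differed among themselves, in mast cell markers too. Mcpt4 was at 1752, 201 and 197 CPM in Control replicates 1, 2 and 3, and Cma1 at 10125, 4043 and 3552 CPM. Kit, Ms4a2, Tpsab1, Gata2 and Mitf were instead lower in Control replicate 1 than in the other Control libraries. All 12 markers summed to 84442, 55434 and 55678 CPM in Control. That sum was 59402 to 66291 CPM in BSA and 71017 to 82299 CPM with luteolin. The summed level of 7 neutrophil markers was 216 CPM in Control replicate 1 but 7.06 and 5.68 CPM in Control replicates 2 and 3, and was 145 to 159 CPM in BSA and 168 to 199 CPM in BSA + luteolin. Prg2, an eosinophil granule gene, was at 31.5 CPM in Control replicate 1 and at 0.0967 and 0 CPM in the other Control libraries. In Control replicates 1, 2 and 3, Epx was at 1.70, 0 and 0 CPM, whereas Siglecf was at 4.14, 12.9 and 10.1 CPM. Ccr3 showed no such split, at 17.9, 22.7 and 14.8 CPM. The 4 eosinophil markers summed to 55.2, 35.7 and 24.8 CPM in Control. Their sum was 45.5 to 49.4 CPM in BSA and 41.3 to 50.4 CPM with luteolin. The basophil protease Mcpt8 was at 432 CPM in Control replicate 1, against 21.8 and 18.7 CPM. In the neutrophil sum, Prg2 and Mcpt8, Control replicate 1 was nearer to the 6 treated libraries than to Control replicates 2 and 3. The sum of all 5 basophil markers did not follow that split, at 4129 CPM in Control replicate 1, 3594 and 3556 CPM in the other Control libraries and 3247 to 3793 CPM in the treated ones. The basophil genes Cd200r3 and Prss34 were called lower, and Mcpt8 higher, in BSA than in Control without Control replicate 1. Without Control replicate 1, all 7 neutrophil markers were called higher in BSA and in BSA + luteolin than in Control, with median log2 values of 5.54 and 6.01. In bulk RNA, fewer cells of a type and less RNA per cell cannot be told apart. Comparisons with Control are therefore also given without Control replicate 1 and with Control replicate 1 as the only Control library. The part of these markers in the AP-1 results was not tested. The comparison of BSA + luteolin with BSA uses no Control library, but some of these markers differed there too. The neutrophil genes S100a8 and S100a9 were called higher with luteolin (log2 0.43 and 0.32), as were the basophil genes Mcpt8, Prss34 and Cd200r3 (log2 0.21, 0.24 and 0.20), while Siglecf of the eosinophil list was lower (log2 -1.07). Of the 4 tested macrophage markers 0 were called there by edgeR, DESeq2 or limma, or at an unadjusted p under 0.05.

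RNA of AP-1 genes was higher in BSA than in Control for 6 of the 10 members, Fos, Fosb, Fosl2, Jun, Jund and Atf3, by 1.75-fold to 13.2-fold. With luteolin, 9 members were lower than in BSA and Batf was higher. Fos fell by 0.69 on the log2 scale and Junb by 0.53, whereas Jun fell by 3.04, Fosl1 by 3.58 and Atf3 by 4.33. The 3 comparisons share libraries, so their values are set side by side and are not independent of each other. The plots of levels and of fold changes show each member in turn.

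**Figure D1:**
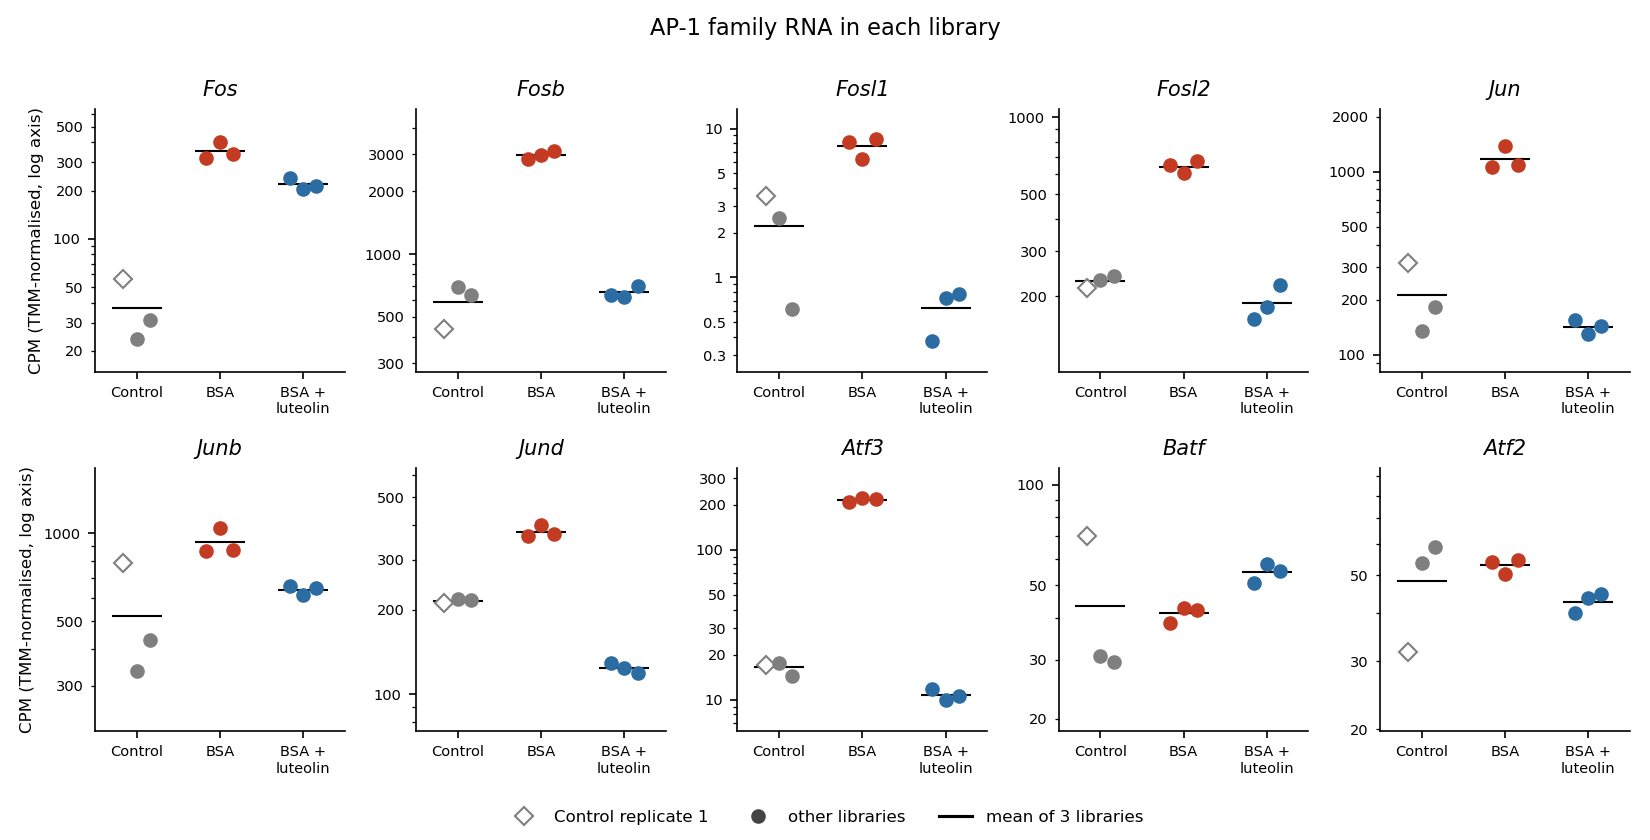
CPM (TMM-normalised, log axis) of the 10 AP-1 genes in each of the 9 libraries, with points for libraries, a line for the mean of 3 and an open diamond for Control replicate 1. Atf3 lies between 209.8 and 220.5 CPM in BSA and is at most 17.7 CPM in every other library, while Fos in BSA + luteolin is at least 205 CPM, above the highest Control library at 56.3 CPM.

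Fosb, which forms activator dimers with JUN proteins, lies at chr7:19302696-19310051 on the minus strand (GRCm38). Its CPM was 438, 693 and 633 in the Control libraries, 2854, 2989 and 3096 in BSA, and 634, 625 and 706 in BSA + luteolin. The BSA libraries stood far above the other 6, and the Control and BSA + luteolin libraries overlapped. Fosb was 5.07-fold higher in BSA than in Control (log2 2.34, SE 0.18, adjusted p = 0.000879). It was 4.54-fold lower with luteolin than in BSA (log2 -2.18, SE 0.06, adjusted p = 2.01e-14). Against Control, the BSA + luteolin value was 0.15 on the log2 scale (SE 0.18, adjusted p = 0.616).

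Fos, the prototype immediate early gene and partner of JUN, lies at chr12:85473890-85477273 on the plus strand. Its CPM was 56.3, 23.7 and 30.9 in Control, 319.5, 405 and 339 in BSA, and 241, 205 and 213 in BSA + luteolin. No library of any group overlapped with another group, and the order was Control, BSA + luteolin, BSA. Fos was 9.49-fold higher in BSA than in Control (log2 3.25, SE 0.33, adjusted p = 0.0033). It was 1.61-fold lower with luteolin than in BSA (log2 -0.69, SE 0.08, adjusted p = 4.35e-06). It remained 5.91-fold above Control (log2 2.56, SE 0.30, adjusted p = 0.0115), and it was the only member called higher in that comparison. The mean of BSA + luteolin stood 57.6% of the way from the Control mean to the BSA mean. That share was 54.9% with Control replicate 1 as the reference and 58.9% with Control replicates 2 and 3. For Fosb the same share was 2.79%, with 8.55% and -0.36% for these choices of Control. For Junb it was 29.6%, and its sign followed the choice of Control, with -106% and 47.0%. Without Control replicate 3 or any 1 of the BSA + luteolin libraries, the call of Fos against Control was lost, with adjusted p from 0.0549 to 0.092.

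Fosl2, which encodes FRA-2, lies at chr5:32135801-32157842 on the plus strand and was at 215, 232 and 240.1 CPM in Control. It reached 649, 604 and 675 CPM in BSA and was at 163, 182 and 221 CPM with luteolin. The BSA libraries again stood apart, and the highest BSA + luteolin library overlapped with Control. The rise in BSA was 2.80-fold (log2 1.49, SE 0.10, adjusted p = 0.000624) and the fall with luteolin 3.40-fold (log2 -1.77, SE 0.09, adjusted p = 3.11e-11). Fosl1, which encodes FRA-1 and is itself a known AP-1 target, lies at chr19:5447547-5455946 and was scarce. It was at 3.55, 2.51 and 0.618 CPM in Control, 8.09, 6.20 and 8.49 CPM in BSA, and 0.373, 0.729 and 0.774 CPM with luteolin, where its counts were 8, 18 and 16. All BSA libraries were above all Control libraries, but the difference did not pass the test (log2 1.79, SE 0.53, adjusted p = 0.127). It was 2.51 without Control replicate 1 (adjusted p = 0.000169) and 1.08 with Control replicate 1 alone as Control (adjusted p = 0.00765). The fall with luteolin relative to BSA was 12.0-fold (log2 -3.58, SE 0.27, adjusted p = 1.77e-08). Fosl1 overlaps Ccdc85b on the opposite strand, and the strand setting of the counting is not given in the sources used here.

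Jun, the central partner of the FOS proteins, lies at chr4:95049034-95052222 on the minus strand. Its CPM was 316, 135 and 182 in Control, 1066, 1377 and 1086 in BSA, and 155, 129.5 and 144 with luteolin. The BSA libraries were all above Control, and of the Control libraries only replicate 2 lay within the range of the luteolin libraries, with the others above it. Jun was 5.54-fold higher in BSA than in Control (log2 2.47, SE 0.32, adjusted p = 0.00924) and 8.22-fold lower with luteolin than in BSA (log2 -3.04, SE 0.09, adjusted p = 7.77e-14). The rise in BSA lost its call without Control replicate 3, BSA replicate 2 or BSA replicate 3, with adjusted p from 0.0535 to 0.0552. Junos, the antisense gene on the other strand of Jun, had at most 19 counts in a library.

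Junb, which forms weaker activators than JUN and acts as its competitor at many sites, lies at chr8:84974484-84978718 on the minus strand. Its CPM was 788, 337 and 432 in Control, 865, 1044 and 877 in BSA, and 657, 615 and 648 with luteolin. Control replicate 1 was close to the BSA libraries. The BSA value against Control was 0.83 on the log2 scale (SE 0.30, adjusted p = 0.187). Without Control replicate 1 it was 1.22 (SE 0.11, adjusted p = 8.75e-07), and with Control replicate 1 alone as Control it was 0.22 (SE 0.11, adjusted p = 0.124). The fall with luteolin relative to BSA was 1.45-fold (log2 -0.53, SE 0.07, adjusted p = 1.05e-05). Junb overlaps Prdx2 on the opposite strand, and Prdx2 had up to 2791 counts in a library.

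Jund, the member usually expressed without stimulation, lies at chr8:70698949-70700616 on the plus strand. In CPM relative to its mean, it was the steadiest member within Control, at 211, 218 and 217 CPM. It was at 364, 398 and 369.6 CPM in BSA and at 129.7, 124 and 119 CPM with luteolin, so that the 3 groups did not overlap. Jund was 1.75-fold higher in BSA than in Control (log2 0.81, SE 0.10, adjusted p = 0.00592), 3.03-fold lower with luteolin than in BSA (log2 -1.60, SE 0.06, adjusted p = 7.9e-13) and 1.74-fold lower with luteolin than in Control (log2 -0.80, SE 0.09, adjusted p = 0.0115). It was the only member called lower than Control. The rise in BSA missed the threshold when any 1 BSA library was left out, with adjusted p from 0.0553 to 0.0604. The fall below Control missed it when Control replicate 2, Control replicate 3 or any 1 BSA + luteolin library was left out, with adjusted p from 0.053 to 0.109.

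Atf3, a stress-induced member that represses as a homodimer and activates with JUN, lies at chr1:191170296-191218039 on the minus strand. It was at 17.1, 17.7 and 14.5 CPM in Control, 209.8, 220.5 and 219 CPM in BSA, and 11.8, 9.92 and 10.6 CPM with luteolin. The spread within each group was narrow, and the BSA libraries were more than 10 times above every other library. Atf3 was 13.2-fold higher in BSA than in Control (log2 3.72, SE 0.13, adjusted p = 3.86e-05) and 20.1-fold lower with luteolin than in BSA (log2 -4.33, SE 0.07, adjusted p = 1.11e-16), each time the largest change of the 10 members. All 3 luteolin libraries were below all 3 Control libraries, by 1.53-fold, with log2 -0.61 (SE 0.15) and adjusted p = 0.0779. That difference passed the threshold by DESeq2 (adjusted p = 0.00765) and without Control replicate 1 (adjusted p = 0.00237).

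Batf, which lacks a transactivation domain and pairs with JUN proteins and IRF4, lies at chr12:85686669-85709087 on the plus strand. It was at 70.1, 30.7 and 29.4 CPM in Control, 38.7, 42.9 and 42.2 CPM in BSA, and 50.8, 58.0 and 55.2 CPM with luteolin. It was the only member higher with luteolin than in BSA, by 1.33-fold (log2 0.41, SE 0.07, adjusted p = 0.00041), without overlap of the libraries. Its direction against Control followed the choice of Control library. The log2 value of BSA against Control was -0.08 (SE 0.33, adjusted p = 0.922), 0.41 without Control replicate 1 (adjusted p = 0.00214) and -0.78 with Control replicate 1 alone (adjusted p = 7.63e-05). Atf2, a constitutive factor that MAP kinases activate by phosphorylation, lies at chr2:73816509-73892639 on the minus strand. It was at 31.7, 53.9 and 59.1 CPM in Control, 53.9, 50.3 and 54.8 CPM in BSA, and 40.0, 43.5 and 44.6 CPM with luteolin. The fall with luteolin was 1.24-fold (log2 -0.31, SE 0.07, adjusted p = 0.00276). Its log2 value of BSA against Control was 0.14 (SE 0.22, adjusted p = 0.776), and turned to -0.15 without Control replicate 1 (adjusted p = 0.152) and to -0.053 when library size alone was used for scaling. With Control replicate 1 alone as Control it was 0.72 (adjusted p = 0.000233).

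**Figure D2:**
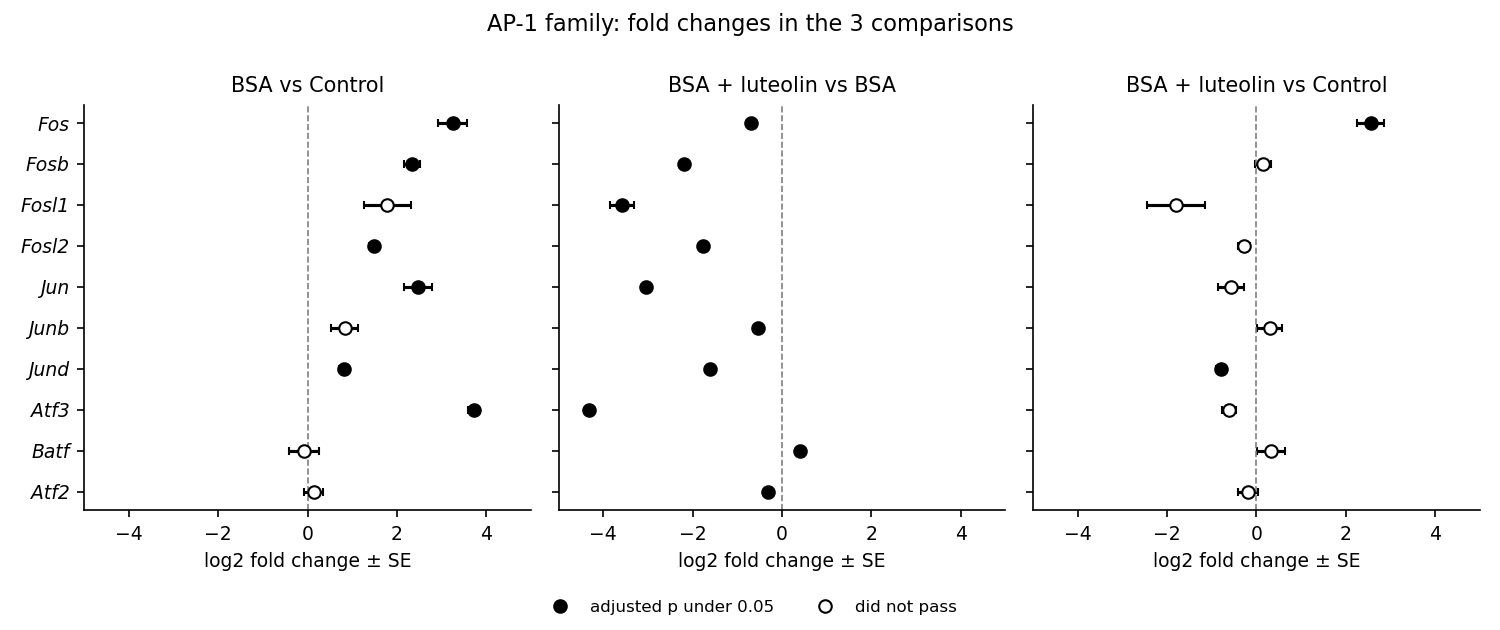
Log2 fold change with its SE for the 10 AP-1 genes in each comparison, by edgeR's quasi-likelihood test on 6 libraries, with filled points for adjusted p under 0.05. In BSA against Control 6 points are filled and to the right, in BSA + luteolin against BSA all 10 are filled and 9 are to the left, and in BSA + luteolin against Control only Fos and Jund are filled.

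In BSA against Control, 6 of 10 members were called higher, against 2.25% of all genes tested. By edgeR 0 members were called lower, against 1.02% of all genes, and 0 were lower at an unadjusted p under 0.05, by DESeq2 or by limma. The BSA libraries were all above the Control libraries for 8 members, against 16.7% of all genes, and all below for 0 members, against 12.1%. The median log2 value of the 10 members was 1.64, beside 0.02 for all genes. Without Control replicate 1, 9 members were called higher, all but Atf2, against 22.6% of all genes higher and 22.4% lower. With Control replicate 1 as the only Control library, 8 were called higher and Batf lower, against 23.1% and 19.2% of all genes. Fos, Fosb, Fosl1, Fosl2, Jun, Jund and Atf3 were called higher with either choice of Control, and Fosl1 was not called with all 3 Control libraries in the fit.

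With luteolin, 9 members were called lower and 1 higher than in BSA, against 21.9% and 18.1% of all genes. With library size alone in place of TMM factors, 31.4% of the genes called were lower, beside 54.6% in the values used here, while the members' calls were the same. The same change of scaling moved that share from 31.2% to 63.0% in BSA against Control. The libraries did not overlap for any of the 10, against 26.2% of all genes lower and 24.2% higher. The median log2 value of the members was -1.68, beside 0.02 for all genes. These calls were the same under each alternative scaling, test and filter and without any 1 library, but in a fit with all 9 libraries, which shares the spread of the Control libraries, Fos, Junb, Batf and Atf2 did not pass.

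Against Control, 1 member (Fos) was called higher with luteolin and 1 (Jund) lower, against 0.285% and 2.75% of all genes. The libraries did not overlap for Fos on the higher side, against 13.6% of all genes, and for Jund and Atf3 on the lower side, against 14.9%. The median log2 value of the members was -0.23, beside 0.01 for all genes. Without Control replicate 1, Fos, Junb and Batf were called higher and Fosl2, Jund, Atf3 and Atf2 lower, against 29.9% and 30.1% of all genes. With Control replicate 1 as the only Control library, Fos, Fosb and Atf2 were called higher and Fosl1, Jun, Junb, Jund, Atf3 and Batf lower, against 11.6% and 9.55%. Fos above Control and Jund and Atf3 below it held with either choice, whereas Junb, Batf and Atf2 changed sides.

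Ratios between 2 members within a library do not depend on depth or scaling. The log2 ratio of Fos to Jun counts was -2.49, -2.51 and -2.55 in the Control libraries, -1.74, -1.77 and -1.68 in BSA, and 0.64, 0.66 and 0.56 with luteolin. The Control libraries differed in the level of both genes, with replicate 1 the highest in each, and had nearly the same ratio between them. Its mean was -2.52 ± 0.03 in Control, -1.73 ± 0.04 in BSA and 0.62 ± 0.05 in BSA + luteolin (SD, n = 3). With luteolin, Fos relative to Jun was 2.35 higher on the log2 scale than in BSA, and 3.14 higher than in Control. The ratio of Junb to Jun was 1.30 ± 0.04 in Control, -0.34 ± 0.06 in BSA and 2.17 ± 0.08 with luteolin (log2, SD, n = 3). The difference in log2 Junb/Jun was -1.63 for BSA minus Control and 2.5 for BSA + luteolin minus BSA.

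Other ratios spread more in Control. The ratio of Junb to Jund was 1.18 ± 0.66 in Control, 1.30 ± 0.08 in BSA and 2.37 ± 0.07 with luteolin (log2, SD, n = 3). Fos to Fosb was -4.06 ± 0.99, -3.08 ± 0.17 and -1.58 ± 0.17, and Fos to Fosl2 was -2.73 ± 0.71, -0.86 ± 0.25 and 0.23 ± 0.31 in the same order. Atf3 to Jun was -3.60 ± 0.64 in Control, -2.43 ± 0.18 in BSA and -3.73 ± 0.04 with luteolin, and Fosb to Jun 1.54 ± 0.97, 1.35 ± 0.21 and 2.20 ± 0.14. There were 21 differences between groups, from 7 ratios and 3 comparisons. The smallest exact permutation p that 3 against 3 libraries can give is 0.1 (two-sided), or 0.131 here after adjustment over the 21, so none could pass the threshold. Of the 21, 16 reached that p, and Fos/Jun, Junb/Jun and Fos/Fosl2 did so in each comparison. Ratios of other gene pairs were not computed as a background.

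**Figure D3:**
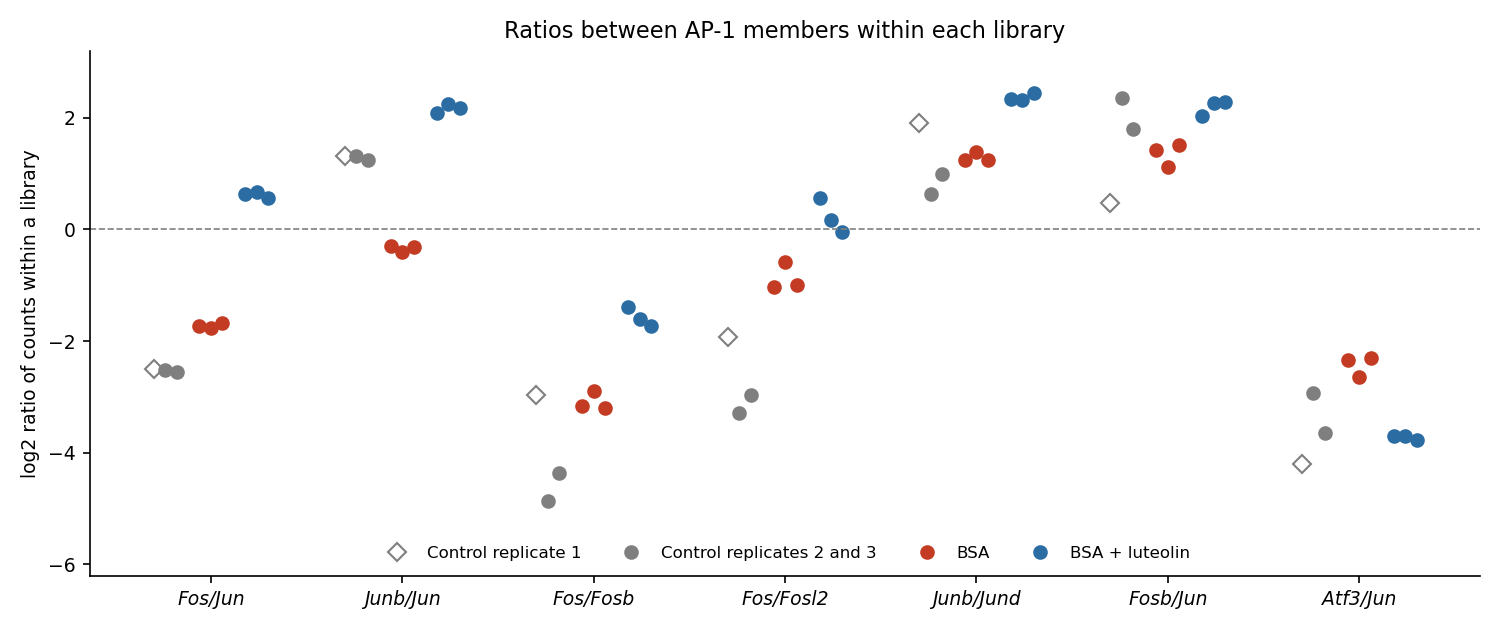
Log2 ratio of counts between pairs of AP-1 genes within each of the 9 libraries, by group, with an open diamond for Control replicate 1. Fos/Jun moves from about -2.52 in Control to 0.62 in BSA + luteolin, and Junb/Jun drops to -0.34 in BSA and reaches 2.17 in BSA + luteolin, with narrow spread in each group, Control replicate 1 included.

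Levels were compared between genes only per length, as counts per base of exon scaled to the same sum over all genes in each library. In Control the order of means was Junb at 719 ± 252, Jund at 424 ± 50.4, Fosb at 313 ± 95.7, Jun at 211 ± 72.3, Batf at 97.7 ± 40.8, Fosl2 at 77.9 ± 12.2, Fos at 50.1 ± 17.8, Atf3 at 25.0 ± 2.60, Atf2 at 19.7 ± 7.52 and Fosl1 at 3.45 ± 2.10 (SD, n = 3). Neighbours in that order had overlapping libraries, except Junb and Jund, Fos and Atf3, and Atf2 and Fosl1. In BSA the order was Fosb at 1399.7 ± 81.8, Junb at 1181 ± 101, Jun at 1079 ± 135, Jund at 662 ± 21.2, Fos at 441 ± 47.0, Atf3 at 295 ± 10.5, Fosl2 at 195 ± 16, Batf at 86.0 ± 4.96, Atf2 at 19.0 ± 1.33 and Fosl1 at 11 ± 2.02, and only Junb and Jun overlapped. With luteolin the order was Junb at 835 ± 50.7, Fosb at 315 ± 35.4, Fos at 279.9 ± 21.5, Jund at 223 ± 4.2, Jun at 134 ± 12.9, Batf at 117 ± 10.0, Fosl2 at 58.7 ± 11.8, Atf2 at 15.7 ± 1.46, Atf3 at 15.0 ± 1.30 and Fosl1 at 0.928 ± 0.349. Fosb and Fos, Jun and Batf, and Atf2 and Atf3 overlapped there. These orders depend on the length used. With the longest annotated transcript, Fosb at 397 stood above Jund at 326 and Atf2 at 29.4 above Atf3 at 20.8 in Control, and Batf at 133 above Jun at 104 with luteolin. By that length Junb and Jun did not overlap in BSA, whereas Atf3 at 247 and Fosl2 at 223 did, and no neighbours overlapped with luteolin. Atf3 stood above Atf2 in BSA by both lengths, at 247 against 28.6 by the longest transcript, and below it in mean level with luteolin, at 12.6 against 23.6.

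Summed over the FOS genes, this level was 445 ± 88.9 in Control, 2046 ± 102 in BSA and 655 ± 54.6 with luteolin (SD, n = 3). Over the JUN genes it was 1354 ± 282, 2923 ± 255 and 1192 ± 65.4. Within the FOS family, Fosb made up 69.3% ± 8.71 in Control, 68.4% ± 1.37 in BSA and 48.1% ± 1.99 with luteolin. Fos made up 12.2% ± 7.12, 21.6% ± 2.14 and 42.9% ± 3.27 (SD, n = 3), and Fosl2 17.7% ± 1.22, 9.52% ± 0.726 and 8.93% ± 1.24. The luteolin libraries did not overlap with either other group in the shares of Fos and Fosb. Within the JUN family, Junb made up 52.1% ± 7.43 in Control, 40.4% ± 0.071 in BSA and 70.0% ± 0.696 with luteolin. Jun made up 15.3% ± 2.10, 36.8% ± 1.37 and 11.3% ± 0.579, and Jund 32.6% ± 9.5, 22.7% ± 1.32 and 18.7% ± 0.772. With the longest annotated transcript as the length, Fos made up 34.0% and Fosb 56.5% of the FOS family with luteolin, and Junb 74.8% of the JUN family.

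**Figure D4:**
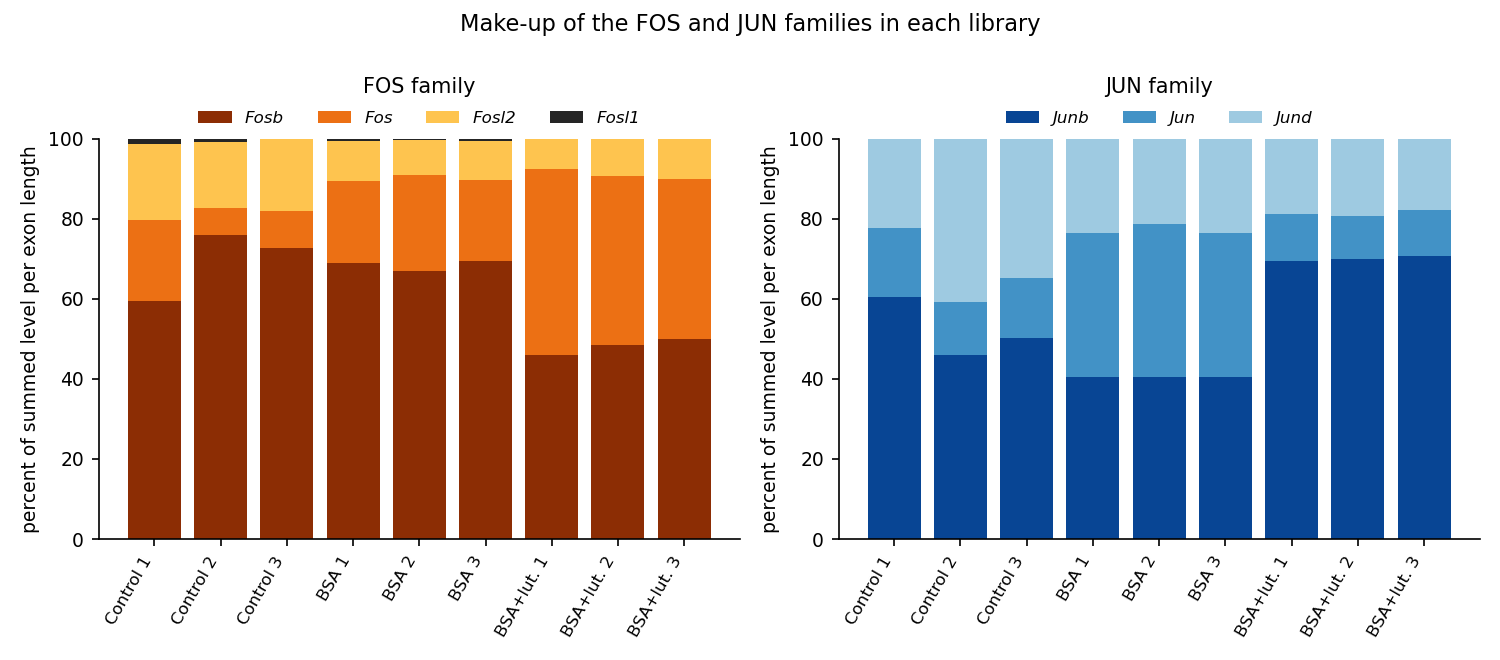
Share of each gene in the summed level per exon length of the FOS family (left) and of the JUN family (right), in percent, 1 bar per library. Fos takes 39.9% to 46.4% of the FOS family in the 3 BSA + luteolin libraries and at most 24.0% elsewhere, while Jun takes 36.0% to 38.4% of the JUN family in BSA and at most 17.5% elsewhere.

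The gene lists around AP-1 were read against the same background. Between BSA + luteolin and BSA that was 21.9% of all genes lower and 18.1% higher. Without Control replicate 1 it was 22.6% of all genes higher and 22.4% lower in BSA against Control, and 29.9% and 30.1% with luteolin against Control. Of 16 tested bZIP genes outside the 10 members, 3 were higher in BSA than in Control, namely Maff (log2 2.06), Nfil3 (log2 1.81) and Atf4 (log2 0.87), and the median of the list was 0.16. Maff is a small MAF factor without a transactivation domain, Nfil3 a repressor induced by interleukin-3, and Atf4 the effector of the integrated stress response. With luteolin, 11 of the 16 were lower than in BSA, with a median of -0.60. Nfil3 (log2 -2.22), Ddit3 (log2 -2.87), Maff (log2 -3.33) and Mafk (log2 -1.10) had the lowest adjusted p. Ddit3 encodes CHOP, a stress-induced bZIP factor. It was at 65.6 ± 8.09 CPM in Control, 72.6 ± 3.35 in BSA and 9.94 ± 0.515 with luteolin (SD, n = 3). Ddit3, Maff and Mafk were also called lower with luteolin than in Control, with log2 values of -2.73, -1.27 and -1.07. The counts without Control replicate 1 were 7 higher and 3 lower in BSA against Control, and 2 higher and 6 lower with luteolin against Control.

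Of 19 tested genes of the MAP kinase cascade that leads to AP-1, 1 was higher in BSA than in Control, Map3k8, the kinase TPL2 that activates the ERK branch. It rose from 29.5 ± 7.73 to 231 ± 7.99 CPM and was at 30.9 ± 1.18 CPM with luteolin (SD, n = 3), with log2 values of 2.97 (adjusted p = 0.000607) and -2.90 (adjusted p = 9.42e-16). Map2k3, Map2k7, Map3k5 and Rps6ka3 were also lower with luteolin than in BSA, with log2 values from -0.58 to -0.21, and Mapk3, Map2k1 and Rps6ka1 were higher, from 0.17 to 0.25. These 5 lower, Map3k8 included, and 3 higher of 19 are near the shares of all genes. The JNK genes Mapk8 and Mapk9 and the p38 gene Mapk14 passed in none of the 3 comparisons. The median of the list was 0.20 in BSA against Control and -0.11 with luteolin against BSA. Between BSA + luteolin and Control 0 of the 19 were called by edgeR, 1 at an unadjusted p under 0.05 (Map2k1), 1 by DESeq2 and 0 by limma. When Control replicate 1 was left out, 6 of the 19 were higher in BSA than in Control, and 5 were higher and 3 lower with luteolin than in Control.

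Of 13 tested factors that bind the Fos and Jun promoters, 0 were called in BSA against Control by edgeR, with 3 at an unadjusted p under 0.05, 2 by DESeq2, 0 by limma and a median of -0.02. With luteolin against BSA, 7 were lower, with a median of -0.20. Srf, the serum response factor that binds the CArG box, was at 67.1 ± 6.84 CPM in Control, 91.0 ± 4.24 in BSA and 41.8 ± 5.11 with luteolin (SD, n = 3). It fell by 1.12 on the log2 scale relative to BSA (adjusted p = 7.96e-09) and by 0.69 relative to Control (adjusted p = 0.0473). Mef2d, Elk4 and Mrtfb had log2 values of -0.40, -0.42 and -0.45 against BSA. Srf was the only factor of the list called against Control. Leaving out Control replicate 1 gave 3 factors higher and 7 lower in BSA than in Control, with a median of -0.22, and 8 lower with luteolin than in Control. Of 10 tested partners and turnover factors, Trib1, a pseudokinase that guides the ligase COP1, moved most, from 3.18 ± 1.26 CPM in Control to 23.1 ± 1.5 in BSA and 1.18 ± 0.281 with luteolin (SD, n = 3). Its log2 values were 2.83 (adjusted p = 0.00269) and -4.29 (adjusted p = 1.15e-12). The calcium-regulated AP-1 partners Nfatc1 and Nfatc2 and the kinase gene Gsk3b had log2 values of -0.37, -0.21 and -0.27 with luteolin against BSA. The medians of these 10 were 0.20 in BSA against Control and -0.09 with luteolin against BSA. Against Control 0 of the 10 were called with luteolin by edgeR or limma, and 1 was lower at an unadjusted p under 0.05 and by DESeq2. With Control replicate 1 left out, 2 were higher in BSA than in Control, and 2 were higher and 3 lower with luteolin.

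Of 20 other immediate early genes, 11 were higher in BSA than in Control, with a median of 1.59, and all 20 were lower with luteolin than in BSA, with a median of -2.20. Egr2, a zinc finger factor, went from 70.8 ± 9.62 CPM in Control to 1118 ± 49.3 in BSA and 45.3 ± 3.41 with luteolin (SD, n = 3), with log2 values of 3.98 and -4.62. Nr4a3 and Dusp1 rose by 4.48 and 2.52 on the log2 scale in BSA, and Klf6, Ier5 and Ier3 had log2 values of -2.26, -2.64 and -2.11 with luteolin against BSA. Against Control, Nr4a1 (log2 1.39, adjusted p = 0.0387) and Nr4a2 (log2 2.18, adjusted p = 0.0119) were called higher with luteolin, as Fos was. Another 7 were called lower than Control, of which Klf2, Ier5, Klf10 and Ier3 had the lowest adjusted p and log2 values of -1.71, -0.99, -3.27 and -1.05. Without Control replicate 1 the counts of the list were 19 higher and 1 lower in BSA against Control, and 5 higher and 14 lower in BSA + luteolin against Control.

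Genes known from textbooks as AP-1 targets rose in BSA in 11 of 18 cases, with a median of 1.87, and 15 of 18 were lower with luteolin than in BSA, with a median of -1.63. The cytokine gene Tnf was at 14.8 ± 6.07 CPM in Control, 759 ± 45.4 in BSA and 41.9 ± 4.45 with luteolin (SD, n = 3). Its log2 values were 5.67 (adjusted p = 0.000206) and -4.18 (adjusted p = 3.72e-16). The chemokine genes Ccl4, Ccl3 and Ccl2 rose by 4.13, 2.47 and 1.97 on the log2 scale in BSA. With luteolin, the cytokine genes Il6 and Csf2 and the chemokine gene Ccl3 were lower than in BSA, with log2 values of -2.29, -3.81 and -2.11. The 3 targets that did not pass there were Il3, Mmp9 and Mmp13. Against Control, Tnf and Ccl4 were called higher with luteolin (log2 1.49 and 1.53) and Plau lower (log2 -0.89), with a median of 0.52. These counts without Control replicate 1 were 12 and 3, and 17 were higher and 1 lower in BSA than in Control. Of 5 heat shock genes tested, Dnajb1 was higher in BSA (log2 2.37), and Dnajb1 and Hspa1b were lower (log2 -2.66 and -2.24) and Hspe1 higher (log2 0.27) with luteolin than in BSA. Against Control 0 of the 5 were called with luteolin by edgeR or limma, with 2 higher and 2 lower at an unadjusted p under 0.05 and 1 higher by DESeq2. Leaving out Control replicate 1 gave 4 of the 5 higher in BSA than in Control, and 3 higher and 2 lower with luteolin than in Control. The 12 mast cell markers gave 7 higher and 3 lower with luteolin than in BSA and 1 lower with luteolin than in Control. Between BSA and Control 0 of the 12 were called by edgeR, with 1 higher and 1 lower at an unadjusted p under 0.05, the same counts by DESeq2, and 1 higher by limma. With Control replicate 1 left out, 4 were higher and 4 lower in BSA than in Control, Kit among the lower, and 8 were higher and 3 lower with luteolin than in Control.

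**Figure D5:**
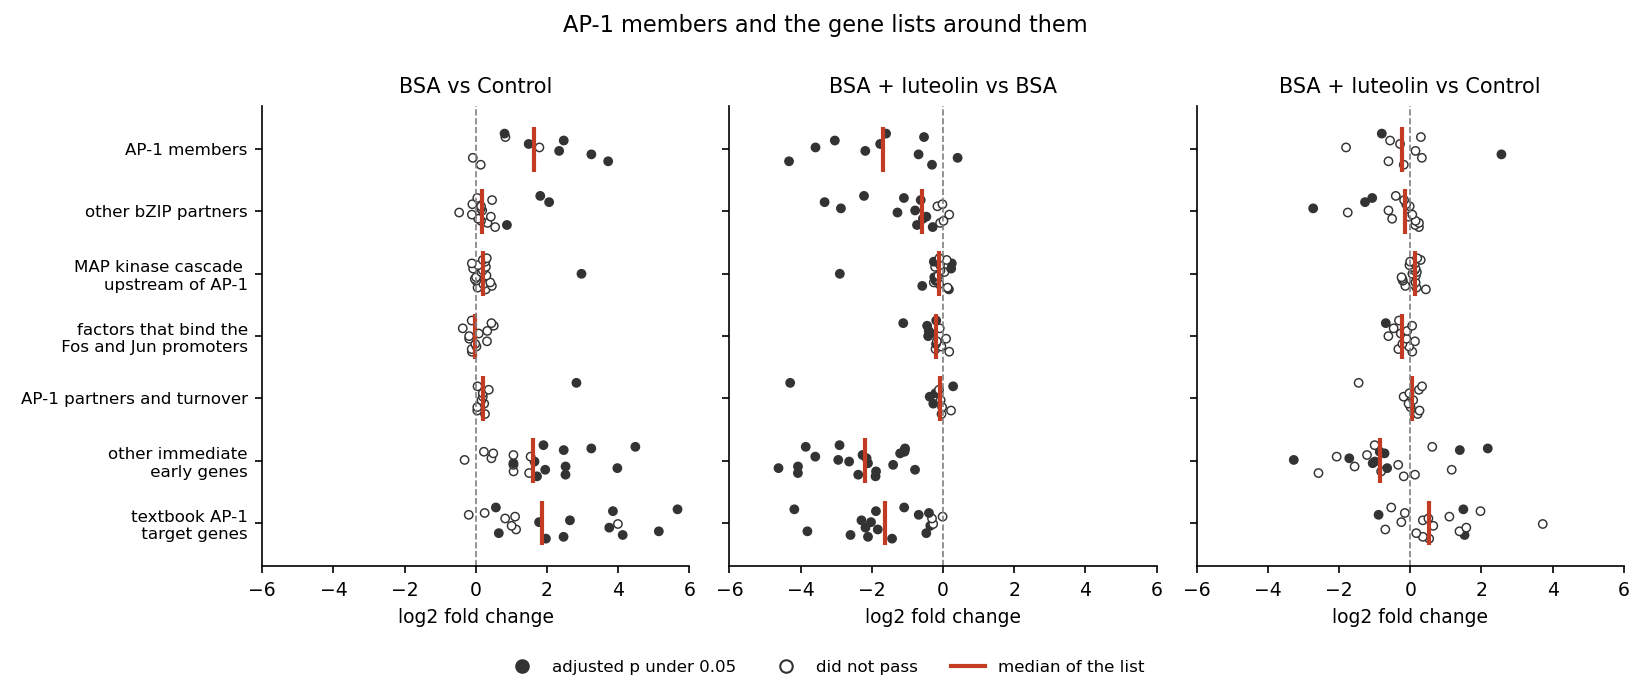
Log2 fold change of each tested gene in the AP-1 family and in 6 lists around it, by comparison, with filled points for adjusted p under 0.05 and a line for the median of the list. In BSA + luteolin against BSA the medians are -1.68 for the AP-1 members, -2.20 for the other immediate early genes, -1.63 for the AP-1 targets and between -0.60 and -0.09 for the other 4 lists.

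Genes closest to a member were sought only among the tested genes outside the AP-1 members. Closeness was the root mean square difference in log2 CPM over the 9 libraries, after centring each gene on its own mean. Nearest to Fos were Nr4a2 (0.41), Ccl1 (0.50) and Nr4a1 (0.51), beside a root mean square of 1.48 for Fos itself. Atf3 was nearest to Egr2 (0.18), then Tagap (0.38) and Rcan1 (0.41), beside 1.91 for Atf3. Jun was nearest to Srxn1 (0.26), Lif (0.27) and Zfp36 (0.29), and Fosb to Gpr171 (0.20), Dusp1 (0.20) and Spry1 (0.23). For Fosl2 they were Zswim4 (0.11), Btg2 (0.14) and Wee1 (0.16), for Jund Nlrp3 (0.11), Serpina3f (0.12) and Smim3 (0.13), and for Junb Slc7a5 (0.14), Slc6a9 (0.16) and Il1b (0.17). Fosl1, whose low counts add noise, was nearest to Gm45222 (0.55), Marcksl1 (0.60) and Trem1 (0.60). Batf and Atf2, which varied least, were nearest to Tyms (0.08) and Xrn1 (0.04). No 2 members shared a nearest gene.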

How the data were processed

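RNA was measured in BMMCs as 9 libraries made with a stranded mRNA kit. The authors filtered the reads with HTStream and, per the submitters' processing notes, aligned them with STAR 2.7.0f to mm10. The values are raw read counts for each Ensembl gene, as the authors deposited them, with no filter or scaling. The column names point to htseq-count, and its version, annotation and strand setting are not given in the sources used here. Every column mapped to a labelled sample. Groups came from the labels, which do not say whether replicates were separate cultures, so p-values measure the spread between these libraries, which may be technical. No 2 libraries of a group agreed within counting noise (lowest chi-square per degree of freedom 3.93).

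Counts were analysed in R 4.3.3. The test was edgeR 4.0.16 (quasi-likelihood, TMM factors, two-sided), fitted to 6 libraries at a time and to the 11560 genes whose median CPM exceeded 1. Adjusted p-values are Benjamini-Hochberg over these genes, with a threshold of 0.05. CPM values are TMM-normalised over all 9 libraries, and log2 CPM used a prior count of 2. limma 3.58.1, DESeq2 1.42.0, other scalings and filters, a joint fit, a replicate block and leaving out each library were alternatives. The scripts were tested on simulated data. Lengths and coordinates came from GENCODE on GRCm38 and promoters from RefSeq on GRCm38.p6. The members and all gene lists were chosen with earlier results of these data known. All 10 members are named, and of each other list at most 4 genes with the lowest adjusted p, or all where 5 or fewer counted. Mapk8, Mapk9, Mapk14, Il3, Mmp9 and Mmp13, the cell markers and some CPM values of list genes were named after their values were seen. Some genes of the lists are not reported here by name. The CPM worth of 3 counts covers counting error only. SD and SE values include the spread between libraries.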

Additional observations from a re-analysis of the deposited data

How the results depend on the processing

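With luteolin against BSA, 4624 genes and 10 members were called. The count of genes stayed within 1.5 times that under each alternative but the fit with all 9 libraries, which gave 1093 genes and 6 members. Leaving out 1 library gave 3242 to 5082 genes and 10 members each time. In BSA against Control, 378 genes and 6 members were called, with 1227 genes by DESeq2, 618 with no filter on low counts, 1105 with all 9 libraries and 4892 with Control replicate 1 as the only Control library. Leaving out 1 library gave 90 to 5207 genes and 4 to 9 members, the highest without Control replicate 1. With luteolin against Control, 351 genes and 2 members were called, with 1379 genes by DESeq2, 811 with no filter, 1251 with all 9 libraries, and 2447 genes and 9 members with Control replicate 1 as the only Control library. Leaving out 1 library gave 2 to 6931 genes and 0 to 7 members. The setting with only Control replicate 1 was chosen after seeing the data, and it assumes that this lone library varies like the libraries of the other group. The cause of these shifts was not tested.

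With library size alone in place of TMM factors, the median log2 value of all genes moved to -0.15 in BSA against Control and 0.13 in BSA + luteolin against BSA, and the share of lower genes among those called went from 31.2% to 63.0% and from 54.6% to 31.4%. Upper-quartile factors gave 47.6% and 38.2%. The calls of the 10 members were the same under both scalings. DESeq2 gave 51.2% in BSA against Control, and 74.5% in BSA + luteolin against Control, beside 90.6% by edgeR.

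The log2 value of BSA against Control changed sign for Atf2 with library size alone (-0.053) and without Control replicate 1 (-0.15), and for Batf by limma (0.0465), with the replicate block (0.0471) and without Control replicate 1, where leaving out 1 library gave -0.309 to 0.41. In BSA + luteolin against Control it changed sign for Fosb without Control replicate 1, where leaving out 1 library gave -0.0289 to 0.288, and for Junb (-0.30), Batf (-0.36) and Atf2 (0.43) with only Control replicate 1. Fosl1 in BSA against Control passed by DESeq2 (adjusted p = 0.0188), with no filter (0.0112) and with all 9 libraries (0.0498).

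Replicate numbers are shared between groups, and in each comparison at least 1 of the 3 same-numbered pairs had a correlation of deviations of 0.1 or less (range -0.26 to 0.31), so the numbers were not taken to pair the libraries. The mean was 0.145 for same and -0.0727 for different numbers with luteolin against BSA, 0.119 and -0.0651 with luteolin against Control, and -0.0191 and 0.0119 in BSA against Control. With the replicate block, 144 genes and 5 members were called in BSA against Control (Jund, adjusted p = 0.0507, did not pass), 5582 genes and 10 members in BSA + luteolin against BSA, and 212 genes and 2 members in BSA + luteolin against Control.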
